A study of Mus musculus with 21 samples.

Results

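The motor neuron homeodomain factors described here were *Isl1*, *Isl2*, *Lhx3*, *Lhx4* and *Mnx1*, 5 genes chosen by name out of 55400 in the count table. All 5 were found by symbol and passed the filter on low counts in every comparison. RNA was sequenced from C57BL/6 mouse embryonic stem cells that had been grown on mouse embryonic fibroblast feeders and then differentiated as embryoid bodies toward motor neurons of the hypaxial motor column. Retinoic acid (1 µM) and the Sonic hedgehog agonist SAG (0.5 µM) were given from day 2 and the Notch pathway inhibitor DAPT (5 µM) from day 4. At day 5 the medium was changed to one with DAPT but without retinoic acid and SAG. The groups collected at day 6 therefore differ from the earlier ones in this medium too. DAPT was given from day 4, when the D4 cells were collected, so the later groups also differ from D4 in their time with DAPT. Stage and medium cannot be told apart in these comparisons. The 4 untreated groups were collected at day 4 (D4), 8 h later (D4H8), at day 5 (D5) and at day 6 (D6). The other 3 groups, D4H8_GSKJ4, D5_GSKJ4 and D6_GSKJ4, were collected at the same times after 1 day with GSKJ4, an inhibitor of the Kdm6 family of histone H3 lysine 27 demethylases. All cells were wild type and each group had 3 biological replicates. The GSKJ4 dose, and whether the untreated cells received a vehicle, were not given for RNA-seq in the sources used here, and no treated D4 group was analysed. Each library came from a whole culture, so fewer cells of a type and less RNA per cell cannot be told apart.

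The members encode transcription factors that define spinal motor neurons. *Isl1*, *Isl2*, *Lhx3* and *Lhx4* are LIM-homeodomain genes, whose proteins carry LIM domains that bind the adaptor Ldb1 and a homeodomain that binds DNA. Isl1 and Lhx3 join with Ldb1 in a complex that switches on motor neuron genes as progenitors leave the cell cycle, and Lhx3 with Ldb1 but without Isl1 directs V2 interneuron fate. Lhx3 and Lhx4 are close paralogues that newborn ventrally projecting motor neurons express for a short time and that the medial motor column goes on expressing. Isl2 is a paralogue of Isl1 that appears after it in postmitotic motor neurons. Mnx1, also called Hb9, is a homeodomain protein outside the LIM family that holds motor neuron identity and represses interneuron genes.

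Each member lies on a chromosome of its own. *Isl1* (ENSMUSG00000042258) is at GRCm38 chromosome 13: 116298281-116309689 on the minus strand and *Isl2* (ENSMUSG00000032318) at chromosome 9: 55538672-55546180 on the plus strand. *Lhx3* (ENSMUSG00000026934) is at chromosome 2: 26200212-26208289, *Lhx4* (ENSMUSG00000026468) at chromosome 1: 155698031-155751684 and *Mnx1* (ENSMUSG00000001566) at chromosome 5: 29473034-29478470, all on the minus strand. An antisense gene overlaps *Lhx3* (Gm27196, at most 65 counts and 1.63 FPKM in any library) and another overlaps *Isl2* (Gm17226, at most 9 counts). Whether the counting used strand was not given in the sources used here, so whether reads in these overlaps changed the counts of *Lhx3* and *Isl2* cannot be told.

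The start regions of the 5 genes are shown because the paralogues of a pair followed different courses in these libraries. Each line gives the 250 bases before a RefSeq transcription start (GRCm38.p6), 5′ to 3′ on the strand of the gene, with the homeodomain core TAAT, or ATTA on the other strand, in capitals. *Lhx3* has 2 starts in the RefSeq set and the other members have 1 each. The windows of *Isl2*, *Lhx4* and the downstream start of *Lhx3* lie inside the longer Ensembl span of the gene given above, and the others at its 5′ end or beyond.
*Isl1*, chr13:116309689-116309938, minus strand: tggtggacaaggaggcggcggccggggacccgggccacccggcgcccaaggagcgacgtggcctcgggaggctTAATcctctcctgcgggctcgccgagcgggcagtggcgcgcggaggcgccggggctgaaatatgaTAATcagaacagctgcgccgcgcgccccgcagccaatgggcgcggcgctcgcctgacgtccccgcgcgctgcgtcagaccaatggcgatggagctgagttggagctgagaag
*Isl2*, chr9:55540899-55541148, plus strand: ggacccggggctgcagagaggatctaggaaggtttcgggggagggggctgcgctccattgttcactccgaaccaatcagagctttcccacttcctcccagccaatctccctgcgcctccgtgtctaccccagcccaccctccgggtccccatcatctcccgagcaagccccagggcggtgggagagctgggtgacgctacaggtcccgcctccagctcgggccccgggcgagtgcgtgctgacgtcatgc
*Lhx3*, upstream start, chr2:26208250-26208499, minus strand: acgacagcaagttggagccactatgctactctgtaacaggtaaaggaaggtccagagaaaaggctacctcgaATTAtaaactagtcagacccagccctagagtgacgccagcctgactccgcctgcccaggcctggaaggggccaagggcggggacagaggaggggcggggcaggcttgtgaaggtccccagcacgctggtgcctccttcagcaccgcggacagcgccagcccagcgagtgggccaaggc
*Lhx3*, downstream start, chr2:26206576-26206825, minus strand: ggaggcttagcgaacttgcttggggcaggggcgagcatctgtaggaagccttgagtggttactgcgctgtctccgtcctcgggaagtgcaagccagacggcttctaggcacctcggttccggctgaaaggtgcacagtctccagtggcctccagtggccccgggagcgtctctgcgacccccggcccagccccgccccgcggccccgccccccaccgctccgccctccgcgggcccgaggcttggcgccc
*Lhx4*, chr1:155742028-155742277, minus strand: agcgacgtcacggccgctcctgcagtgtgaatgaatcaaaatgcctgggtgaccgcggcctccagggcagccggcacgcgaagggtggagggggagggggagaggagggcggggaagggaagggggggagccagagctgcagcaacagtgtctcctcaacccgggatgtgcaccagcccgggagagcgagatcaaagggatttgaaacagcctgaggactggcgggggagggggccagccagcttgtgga
*Mnx1*, chr5:29478471-29478720, minus strand: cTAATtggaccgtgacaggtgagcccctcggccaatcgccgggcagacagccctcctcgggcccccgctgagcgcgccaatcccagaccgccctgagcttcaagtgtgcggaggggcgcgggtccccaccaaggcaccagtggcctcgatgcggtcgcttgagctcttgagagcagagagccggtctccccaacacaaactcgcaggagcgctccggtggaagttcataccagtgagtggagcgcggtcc

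The TAAT core, searched on both strands, occurred in 18041 of 32851 windows of this length over all genes (54.9%). It stood 2 times before *Isl1*, 1 time before *Mnx1* and 1 time before the upstream start of *Lhx3*, where its letters overlap a TATAAA, and it had 0 matches before *Isl2*, *Lhx4* and the downstream start of *Lhx3*. The E-box CANNTG, which proneural basic helix-loop-helix factors recognise, was in 66.2% of all windows. It stood 1 time before *Isl1*, 2 times before *Mnx1* and 1 time before the downstream start of *Lhx3*. CCAAT, or ATTGG on the other strand, was in 33.8% of all windows. There were 2 matches before *Isl1*, 2 before *Isl2* and 3 before *Mnx1*, of which 1 overlaps the TAAT core, and 0 before *Lhx3* and *Lhx4*. All 6 windows held more CpG dinucleotides than the median window, between 11 before the upstream start of *Lhx3* and 33 before *Isl1*, against a median of 6. These are matches of letters in short windows and do not show binding of a factor.

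The libraries held 14982115 to 34383842 counts each, with a median of 16238435, and the deepest was an untreated D4H8 library. Library D5_GSKJ4 replicate 2 stood apart, with 39381 genes at zero against 29339 to 32805 in the other 20. The GSKJ4 comparison at D5, its differences from the other stages and the steps to and from D5_GSKJ4 are also given without it. D4H8_GSKJ4 replicate 2 differed from the rest of its group too, with 7.28% of its counts in its 10 most abundant genes, against 3.50% to 6.49% in the other 20 libraries. Its mean chi-square per gene was 104.0 and 86.1 against the other replicates, which were at 33.7 from each other, and the GSKJ4 comparisons at D4H8 are also given without it. Markers of the labelled cell type were present: all 5 cholinergic genes tested, the transmitter genes of motor neurons, were higher at D6 than at D4 (median log2 fold change 8.13). Of the motor column genes, *Aldh1a2*, a retinoic acid synthesis enzyme known for the lateral motor column, rose from 2.68 FPKM at D5 to 56.1 FPKM at D6 (log2 fold change 4.50, adjusted p 2.71e-07 in edgeR), whereas *Foxp1*, another lateral motor column gene, was at 4.94 FPKM at D6 and *Mecom*, a medial motor column gene, at 3.55 FPKM. *Phox2a*, a homeodomain gene of visceral and branchial motor neurons, which use Isl1 but not Lhx3 or Mnx1, was also high, at 52.2 FPKM (SD 18.1, n = 3) at D6. How much of the *Isl1* level came from such cells was not tested.

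In untreated cells the members were higher at D5 than at D4 in every library and then parted. *Isl1*, *Isl2*, *Lhx3* and *Lhx4* rose by 6.25-fold (*Lhx3*) to 9.01-fold (*Lhx4*) within the first 8 h after D4, *Lhx3* peaked at D5 and lost most of its RNA by D6, and *Isl2* and *Lhx4* were still rising at D6. *Mnx1* had the highest level of the members at D4. Values are FPKM, counted reads per kilobase of exon, scaled to the reads counted in the library, in replicates 1, 2 and 3 of each group.

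*Isl1*, the earliest LIM-homeodomain gene of postmitotic motor neurons, was at 2.36, 5.72 and 3.28 FPKM at D4, at 34.03, 27.19 and 24.36 FPKM at D4H8, at 73.36, 89.82 and 91.56 FPKM at D5 and at 126.26, 134.09 and 114.97 FPKM at D6. The 4 stages did not overlap, and *Isl1* was the most abundant member from D4H8 to D6. *Isl2* stood at 0.14, 0.40 and 0.31 FPKM at D4, at 2.36, 1.99 and 3.10 FPKM at D4H8, at 12.41, 18.87 and 25.77 FPKM at D5 and at 36.90, 43.62 and 48.66 FPKM at D6. Here too each stage lay above the last in every library, from a much lower start. As a share of the D6 mean, D4H8 was at 22.8% (SD 3.97) for *Isl1* and at 5.77% for *Isl2*, and D5 at 67.9% (SD 8.03) for *Isl1* and at 44.2% for *Isl2*, each from 3 libraries.

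*Lhx3*, the partner of Isl1 in the motor neuron complex, was at 0.26, 1.23 and 1.56 FPKM at D4, at 5.22, 6.99 and 6.71 FPKM at D4H8, at 28.45, 18.90 and 22.68 FPKM at D5 and at 3.10, 3.82 and 2.79 FPKM at D6. All D6 libraries lay below all D5 and all D4H8 libraries, and above all D4 libraries. Its paralogue *Lhx4* was at 0.11, 0.40 and 0.40 FPKM at D4, at 2.47, 2.62 and 3.00 FPKM at D4H8, at 13.55, 17.14 and 17.24 FPKM at D5 and at 41.88, 26.46 and 32.99 FPKM at D6, with no overlap between stages. At D6 the *Lhx3* mean had dropped to 13.9% of its D5 mean, while the *Lhx4* mean at D5 was 47.3% of its D6 mean. The D6 level of *Lhx4* was 10.3 times that of *Lhx3*, per exon length and as a geometric mean over the 3 libraries, whereas at D4H8 *Lhx3* had been 2.33 times *Lhx4*.

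*Mnx1* was at 4.50, 7.31 and 12.87 FPKM at D4, at 9.85, 11.40 and 17.38 FPKM at D4H8, at 37.59, 36.82 and 45.08 FPKM at D5 and at 38.66, 58.54 and 39.00 FPKM at D6. D4 and D4H8 overlapped, as did D5 and D6, and D4H8 and D5 did not. Its D4 mean was 18.1% of its D6 mean, against 3.03% for *Isl1*, 0.898% for *Lhx4* and 0.658% for *Isl2*.

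**Figure D1:**
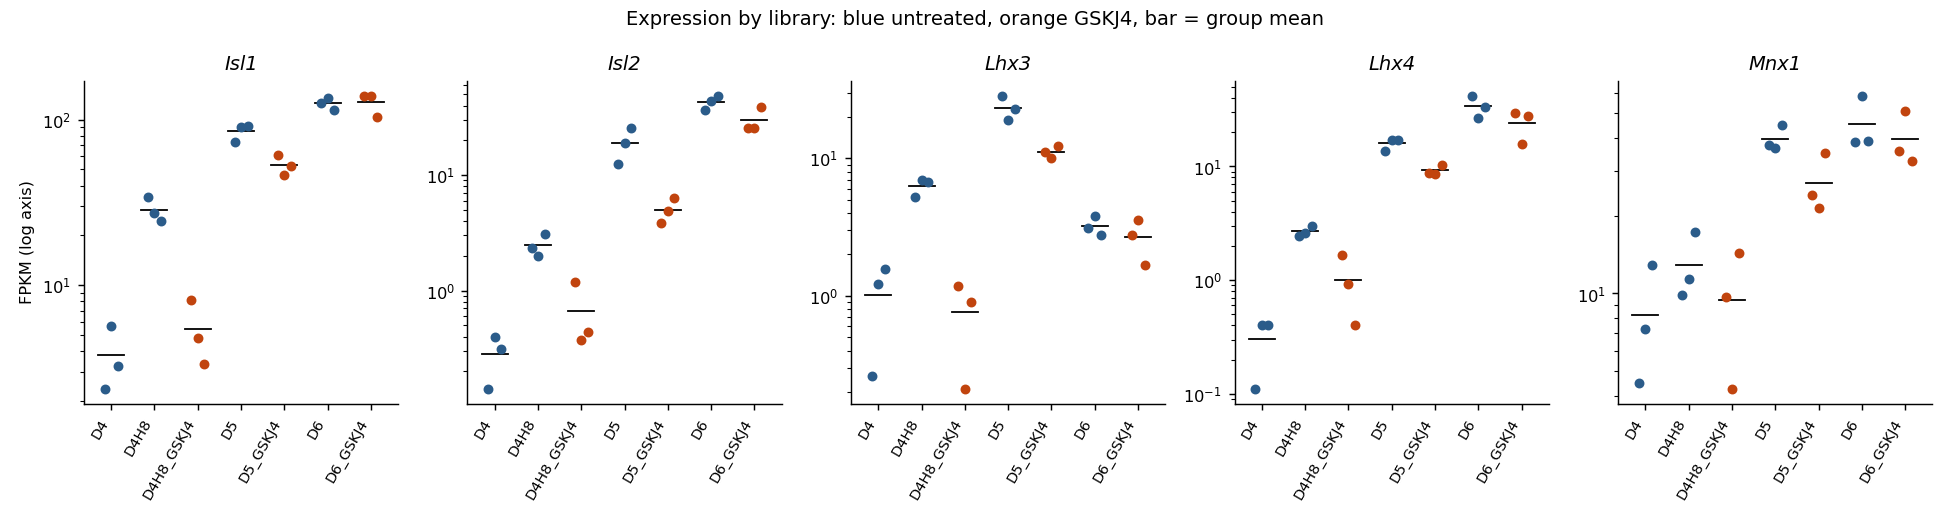
FPKM on a log axis for each of the 5 members in all 21 libraries, untreated in blue and GSKJ4 in orange, with a bar at each group mean. *Lhx3* is highest at D5 and falls to between 2.79 and 3.82 FPKM at D6, while the other members are highest at D6, and the treated D4H8 libraries of *Isl1* lie close to its D4 libraries.

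Tested over the 12 untreated libraries with edgeR's quasi-likelihood test and Benjamini-Hochberg adjustment, 4 of the 5 members rose from D4 to D4H8, where 4.06% of all 17519 tested genes did. Log2 fold changes were 2.89 (SE 0.25, adjusted p 2.18e-05 in edgeR) for *Isl1*, 3.12 (SE 0.35, adjusted p 1.01e-04 in edgeR) for *Isl2*, 2.64 (SE 0.380, adjusted p 7.76e-04 in edgeR) for *Lhx3* and 3.17 (SE 0.308, adjusted p 3.56e-05 in edgeR) for *Lhx4*. *Mnx1* stood at 0.62 (SE 0.284, unadjusted edgeR p 0.0475, adjusted 0.295), which passed with D4 replicate 3, its highest D4 library, left out (1.07, adjusted p 0.0368 in edgeR) and with no filter (adjusted p 0.00521 in edgeR). From D4H8 to D5 all 5 rose, against 17.2% of all genes, most in *Isl2* (log2 fold change 2.94, SE 0.256) and *Lhx4* (2.57, SE 0.25) and less in *Lhx3* (1.90, SE 0.341), *Mnx1* (1.64, SE 0.283) and *Isl1* (1.57, SE 0.228), with edgeR adjusted p between 1.84e-06 and 9.00e-04. Libraries of neighbouring stages did not overlap for 4 members from D4 to D4H8 (15.9% of all genes, upward), for 5 from D4H8 to D5 (24.2%, upward) and, from D5 to D6, for 3 upward (21.6%) and for *Lhx3* downward (26.9%).

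From D5 to D6, *Isl2* (log2 fold change 1.29, SE 0.231, adjusted p 7.91e-04 in edgeR), *Lhx4* (1.20, SE 0.238, adjusted p 0.00164 in edgeR) and *Isl1* (0.68, SE 0.223, adjusted p 0.0313 in edgeR) rose, a step that 19.2% of all genes passed upward. The *Isl1* call was lost without D5 replicate 1 (adjusted p 0.0888 in edgeR), 2 (0.0709) or 3 (0.0659) and without D6 replicate 1 (0.0799) or 2 (0.0803), as well as with upper-quartile scaling (0.0571) and in one fit over all 21 libraries (0.108). *Lhx3* fell by 2.74 on the log2 scale (SE 0.357, adjusted p 7.11e-05 in edgeR), as 15.1% of all genes did. The log2 fold change of *Mnx1* was 0.30 (SE 0.273, adjusted p 0.425 in edgeR). Over the whole course from D4 to D6 all 5 rose, against 32.9% of all genes, by 163-fold for *Isl2*, 124-fold for *Lhx4*, 35.1-fold for *Isl1*, 5.91-fold for *Mnx1* and 3.49-fold for *Lhx3*. The folds start from few D4 counts per library for *Isl2* (7 to 15), *Lhx4* (14 to 39) and *Lhx3* (18 to 77). *Isl1* had 211 to 387 counts there and *Mnx1* 230 to 470, so the largest folds are the least exact.

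**Figure D2:**
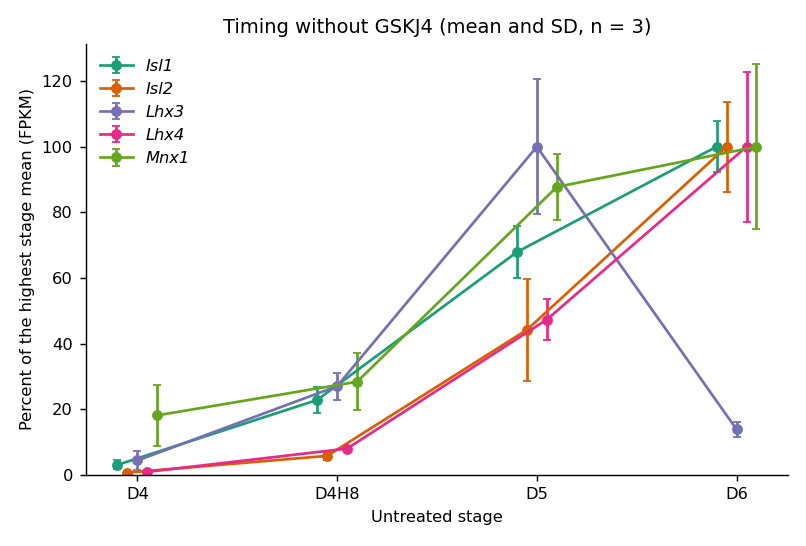
Mean FPKM at each untreated stage as a percent of the member's highest stage mean, with SD over 3 libraries as error bars. *Lhx3* reaches its highest mean at D5 and is at 13.9% of it at D6, *Isl2* and *Lhx4* are at 44.2% and 47.3% of their D6 mean at D5, and *Mnx1* and *Isl1* are at 87.7% and 67.9%.

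Genes that work with the members followed the same stages in part. Of 8 progenitor and proneural factors, 6 rose from D4 to D4H8, and from D5 to D6, as *Lhx3* fell, 6 fell and 1 rose. Among these, *Neurog2*, a proneural factor of motor neuron progenitors, was at 44.4 FPKM at D4H8 and 1.91 FPKM at D6, and *Olig2*, which marks those progenitors, at 98.2 and 1.24 FPKM. Not all genes of this list are confined to progenitors. The paper places *Neurod1* and *Neurod4* in post-mitotic motor neurons, and *Nkx6-1* was at 190.41, 104.79 and 134.71 FPKM at D6. Of 10 LIM cofactors, 7 rose from D5 to D6, among them the adaptor *Ldb1* (log2 fold change 0.35, SE 0.112, adjusted p 0.0271 in edgeR) and *Lmo4* (1.04, SE 0.169, adjusted p 4.10e-04 in edgeR), whose LIM-only protein competes for Ldb1. All 9 pan-neuronal genes rose from D4 to D4H8 (median log2 fold change 2.48, against 2.89 over the members and -0.02 over all genes) and 8 of 9 from D5 to D6. Of the 5 dividing cell markers, 5 fell from D5 to D6. Their part in the courses of the members was not tested.

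Other LIM-homeodomain genes were low. Of 8 such genes, 5 could be tested over the untreated stages, 0 rose between neighbouring stages in edgeR or DESeq2 and 1, *Lhx2*, fell from D5 to D6 (log2 fold change -1.77, SE 0.420, adjusted p 0.00534 in edgeR, and 0.0513 in one fit over 21 libraries). From D4 to D6 *Lhx1* (log2 fold change 0.92, adjusted p 0.0513 in edgeR) and *Lmx1b* (0.79, adjusted p 0.0583 in edgeR) passed as higher in DESeq2 (adjusted p 0.0308 and 0.0408). With GSKJ4 at D4H8, 3 of 4 tested genes lay above 0 (median log2 fold change 0.58), and *Lhx2* rose (1.33, SE 0.313, adjusted p 0.0498 in edgeR) where *Isl1* and *Lhx3* fell. *Lhx1*, a gene of lateral motor column and interneurons, was at 2.07 FPKM (SD 1.31, n = 3) at D4 and 3.90 FPKM (SD 0.807, n = 3) at D6.

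The ratio of paralogues within a library does not depend on how libraries are scaled, and it showed directly how the balance of each pair shifted over the stages. Ratios are of counts per exon length with 0.5 counts added, and the 4 stages were compared with an exact permutation test over the 12 untreated libraries (15400 arrangements, smallest possible p 6.49e-05). *Isl1* exceeded *Isl2* 13.0-fold at D4, where *Isl2* had 7 to 15 counts a library, 11.5-fold at D4H8, 4.64-fold at D5 and 2.92-fold at D6. The log2 ratio was 2.16 lower at D6 than at D4, and the stages differed (exact permutation p 8.44e-04, adjusted over 3 ratios 0.00127). *Lhx3* over *Lhx4* went from 3.07-fold at D4 to 2.33-fold at D4H8, 1.45-fold at D5 and 0.0969-fold at D6 (exact permutation p 2.60e-04, adjusted 7.79e-04). Most of that turn came after D5, when the log2 ratio fell by 3.90 (SE 0.404) with no overlap between the D5 and D6 libraries. *Isl1* over *Lhx3*, the balance of the partners in the motor neuron complex, was 4.41-fold at D4, 4.51-fold at D4H8 and 3.67-fold at D5, and 38.8-fold at D6, between 35.0-fold and 41.1-fold in the 3 libraries (exact permutation p 0.0158, adjusted 0.0158).

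With GSKJ4, *Isl1* and *Lhx3* were lower at D4H8, and at D6 the treated libraries of every member overlapped with the untreated ones. At D4H8 the treated libraries were at 8.12, 4.78 and 3.36 FPKM for *Isl1*, at 1.19, 0.21 and 0.90 FPKM for *Lhx3*, at 1.19, 0.37 and 0.44 FPKM for *Isl2* and at 1.67, 0.92 and 0.40 FPKM for *Lhx4*. For each of these 4 genes all treated libraries lay below all untreated D4H8 libraries, which 14.3% of all genes did, and their range met or overlapped that of the D4 libraries. *Mnx1* was at 9.68, 4.25 and 14.34 FPKM and overlapped with untreated D4H8. The treated mean was 12.2% of the untreated mean for *Lhx3*, 19.0% for *Isl1*, 26.8% for *Isl2*, 37.0% for *Lhx4* and 73.2% for *Mnx1*.

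In edgeR's quasi-likelihood test on these 6 libraries 2 of the 5 members fell, where 1.85% of 16269 genes did. The number of genes that fell varied with the libraries in the fit. It was 301 with all 6 libraries, 748 without D4H8_GSKJ4 replicate 2 and 184 without D4H8_GSKJ4 replicate 3. Without D4H8 replicate 1, 2 and 3 it was 41, 47 and 44, and without D4H8_GSKJ4 replicate 1 it is not given here. A fit with a library left out also has fewer libraries from which to estimate the spread. *Isl1* fell by 2.44 on the log2 scale (SE 0.320, adjusted p 0.0103 in edgeR) and passed under all 13 alternatives. *Lhx3* fell by 3.10 (SE 0.476, adjusted p 0.0194 in edgeR), a call that was lost without D4H8 replicate 1 (adjusted p 0.0651 in edgeR), 2 (0.0712) or 3 (0.0712). Its log2 fold change in those fits was -3.20, -3.03 and -3.07. The paralogues had smaller log2 fold changes, -1.94 (SE 0.466, adjusted p 0.051 in edgeR) for *Isl2* and -1.46 (SE 0.439, adjusted p 0.0833 in edgeR) for *Lhx4*. Both passed without D4H8_GSKJ4 replicate 1, the treated library highest for both (-2.63, adjusted p 0.0224 in edgeR, and -2.01, adjusted p 0.0448 in edgeR). Both also passed in DESeq2 (adjusted p 0.00119 and 0.00673), where 2.69% of the 31166 genes with any count fell. In all *Isl2* passed under 7 and *Lhx4* under 5 of 13 alternatives. The log2 fold change of *Mnx1* was -0.51 (SE 0.369, adjusted p 0.417 in edgeR). Without D4H8_GSKJ4 replicate 2 the values were -2.41 (adjusted p 0.0172 in edgeR) for *Isl1*, -2.68 (0.00655) for *Lhx3*, -1.68 (0.0602) for *Isl2*, -1.46 (0.104) for *Lhx4* and -0.19 (0.663) for *Mnx1*.

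Progenitor and proneural factors were lower too at D4H8. Of the 8 progenitor and proneural factors 7 fell with GSKJ4, among them *Olig1* (log2 fold change -4.12), *Neurog2* (-3.97) and *Olig2* (-3.91), and their summed level was 28.93 to 74.96 FPKM in treated and 285.09 to 440.48 FPKM in untreated libraries. *Onecut1* (-1.91, adjusted p 0.0194 in edgeR) and *Ebf2* (-2.58, adjusted p 0.00758 in edgeR), which are factors of newborn motor neurons, were the 2 of 6 Onecut and Ebf genes that fell. Of 9 pan-neuronal genes 0 passed in either direction in edgeR and 2 had an unadjusted p under 0.05, with 8 of 9 below 0 and a median log2 fold change of -0.61, against -1.94 over the members and 0.02 over all genes. *Tubb3*, the neuronal tubulin, was the 1 that passed in DESeq2 (-1.15, adjusted p 0.0223). Of 8 LIM cofactors tested 0 passed in edgeR and 0 in DESeq2, 2 had an unadjusted p under 0.05, and *Ldb1* was at -0.56 (SE 0.225, adjusted p 0.159 in edgeR). Of 6 fibroblast markers tested 0 passed in edgeR or DESeq2 and 2 had an unadjusted p under 0.05. All 6 had log2 fold changes above 0 (median 0.78), with summed levels of 9.96 to 27.34 FPKM in treated and 5.72 to 13.66 FPKM in untreated libraries. The part of these lists in the result for the members was not tested.

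At D5 all treated libraries of every member lay below the untreated ones, by a smaller factor than at D4H8 for *Isl1*, *Lhx3* and *Lhx4*. Treated libraries were at 61.38, 46.45 and 52.70 FPKM for *Isl1*, at 3.83, 4.88 and 6.33 FPKM for *Isl2*, at 11.09, 10.10 and 12.25 FPKM for *Lhx3*, at 8.83, 8.61 and 10.38 FPKM for *Lhx4* and at 24.07, 21.45 and 35.12 FPKM for *Mnx1*. Of all 16309 genes 5.13% had libraries that lay apart in this way. *Isl2* was at 26.4% of its untreated mean (SD 6.60, n = 3), *Lhx3* at 47.8%, *Lhx4* at 58.0%, *Isl1* at 63.0% (SD 8.83, n = 3) and *Mnx1* at 67.5%.

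No member passed adjustment over all genes at D5 in edgeR, where 0 genes (0.0%) fell and 1 (0.00613%) rose. The log2 fold changes were -1.97 for *Isl2* (SE 0.285, unadjusted edgeR p 4.95e-05, adjusted 0.152), -1.11 for *Lhx3* (SE 0.196, unadjusted edgeR p 2.31e-04, adjusted 0.276), -0.83 for *Lhx4* (SE 0.157, unadjusted edgeR p 3.99e-04, adjusted 0.283), -0.70 for *Isl1* (SE 0.163, unadjusted edgeR p 0.00164, adjusted 0.54) and -0.61 for *Mnx1* (SE 0.198, unadjusted edgeR p 0.0117, adjusted 0.976). All 5 had an unadjusted p under 0.05 with a lower value, which 2.39% of genes had. DESeq2 on the same libraries called 4 of 5 lower. Its adjusted p in DESeq2 was 3.93e-08 for *Isl2*, 3.73e-04 for *Lhx3*, 0.00429 for *Lhx4*, 0.0319 for *Isl1* and 0.409 for *Mnx1*. It called 0.132% of 30271 genes lower, a share over all genes with any count and not over the 16309 that edgeR tested. Without D5_GSKJ4 replicate 2 the log2 fold changes were -1.94 for *Isl2*, -1.03 for *Lhx3*, -0.76 for *Lhx4*, -0.60 for *Isl1* and -0.46 for *Mnx1*. Beside the members (median log2 fold change -0.83, all genes -0.02), the median was -0.25 over 9 pan-neuronal genes with 9 of 9 below 0, and -0.47 over 8 progenitor and proneural factors with 7 of 8 below 0. In either list 0 passed in edgeR or DESeq2 and 2 had an unadjusted p under 0.05. Their part in the result was not tested.

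At D6 no member had treated libraries apart from untreated ones, as 2.48% of all genes had in the lower direction. *Isl1* was at 138.81, 139.38 and 103.63 FPKM, *Isl2* at 25.72, 25.67 and 38.54 FPKM, *Lhx3* at 2.75, 3.57 and 1.67 FPKM, *Lhx4* at 29.49, 15.88 and 27.66 FPKM and *Mnx1* at 35.77, 51.19 and 32.76 FPKM. The treated mean was 1.73% above the untreated one for *Isl1*, and treated means were 87.9% of untreated for *Mnx1*, 82.3% for *Lhx3*, 72.1% for *Lhx4* and 69.6% for *Isl2*. In edgeR 0 of 5 members passed, nor did any of 16301 genes in either direction (0.0%). At an unadjusted p under 0.05 *Isl2* was lower (edgeR p 0.0144), as were 0.822% of genes, and DESeq2 called 0 members and 0.00326% of genes lower.

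Same-numbered D6 libraries deviated together, and with the replicate number as a block *Isl2* fell by 0.54 on the log2 scale (adjusted p 1.03e-04 in edgeR) and *Lhx4* by 0.50 (adjusted p 1.19e-04 in edgeR), where 1.28% of genes fell. In the same blocked fit *Mnx1* (adjusted p 0.0729 in edgeR), *Lhx3* (0.471) and *Isl1* (0.973) did not pass. In all 3 pairs of the same number the treated library was lower for 4 members, *Isl2*, *Lhx4*, *Mnx1* and *Lhx3*, and for *Isl1* it was lower in 1. The share of all genes lower in all 3 pairs was not determined, so this gives direction only. Without the block the log2 fold changes were -0.53 (SE 0.167, adjusted p 1.00 in edgeR) for *Isl2*, -0.48 (SE 0.277, adjusted p 1.00 in edgeR) for *Lhx4*, -0.29 (SE 0.299) for *Lhx3*, -0.19 (SE 0.217) for *Mnx1* and 0.02 (SE 0.157) for *Isl1*.

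**Figure D3:**
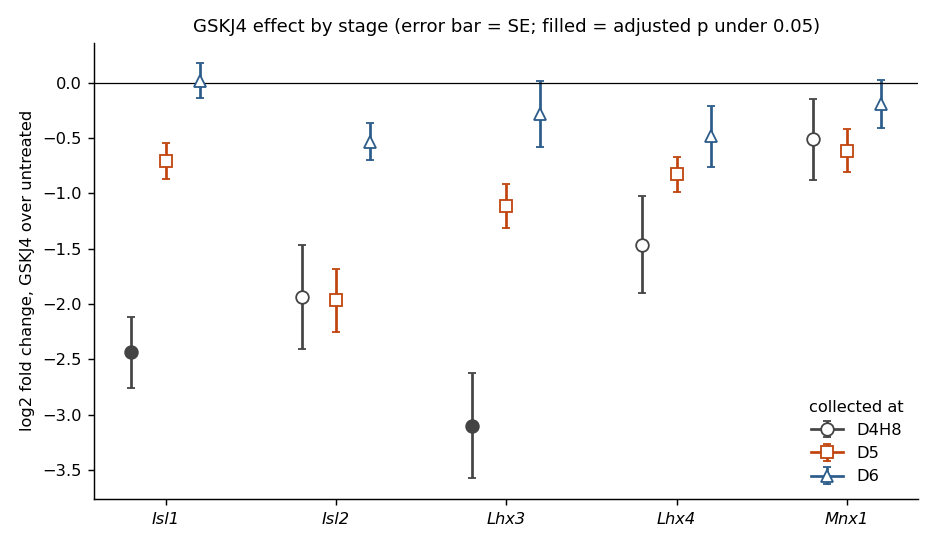
Log2 fold change of GSKJ4 over untreated cells for each member at D4H8 (circles), D5 (squares) and D6 (triangles), with SE as error bars and filled symbols for an edgeR adjusted p under 0.05. *Isl1* and *Lhx3* at D4H8 are the filled points, *Isl2* lies at -1.94 at D4H8 and -1.97 at D5, and all D6 points lie between -0.53 and 0.02.

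The difference of the GSKJ4 effect between stages was tested over the 18 libraries of D4H8, D5 and D6. Between D4H8 and D6 it passed for *Isl1* (2.46 on the log2 scale, SE 0.367, adjusted p 0.00239 in edgeR) and *Lhx3* (2.82, SE 0.511, adjusted p 0.0123 in edgeR), where 0.552% of 18103 genes had an effect that was called higher at D6. *Lhx3* missed the threshold without D6 replicate 3 (adjusted p 0.0524 in edgeR), and without D4H8_GSKJ4 replicate 2 the differences were 2.43 for *Isl1* and 2.39 for *Lhx3* (both adjusted p 0.0101 in edgeR). The differences for *Isl2* (1.40, SE 0.456, adjusted p 0.169 in edgeR), *Lhx4* (0.98, SE 0.472, adjusted p 0.373 in edgeR) and *Mnx1* (0.33, SE 0.420, adjusted p 0.792 in edgeR) did not pass, *Isl2* passing without D4H8_GSKJ4 replicate 1 (2.11, adjusted p 0.0148 in edgeR). Between D4H8 and D5 no member passed in edgeR, *Isl1* coming nearest (1.73, SE 0.365, adjusted p 0.0589 in edgeR) and *Isl2* showing the least difference (-0.05, SE 0.512), where 0.232% of genes were called higher. *Isl1* and *Lhx3* (1.97, SE 0.497) had an unadjusted p under 0.05 there and passed in DESeq2 (adjusted p 0.00184 and 0.00914), which called 0.447% of genes higher. Without D4H8_GSKJ4 replicate 1, *Isl1* (2.11, adjusted p 0.00231 in edgeR) and *Lhx3* (2.44, adjusted p 0.023 in edgeR) did pass there. Without D4H8_GSKJ4 replicate 2 neither passed (*Isl1* 1.69, adjusted p 0.136 in edgeR, and *Lhx3* 1.54, 0.145). Neither passed without D5_GSKJ4 replicate 2 (*Isl1* 1.83, adjusted p 0.0557 in edgeR, and *Lhx3* 2.05, 0.137). Between D5 and D6 no member and none of all genes passed in edgeR (0.0%), and 0 members passed in DESeq2. The largest difference was that of *Isl2* (1.45, SE 0.413), the 1 member with an unadjusted p under 0.05 (edgeR p 0.00242), which 1.03% of genes had in that direction. Without D5_GSKJ4 replicate 2 that difference was 1.41 (unadjusted edgeR p 0.00657).

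Whether the paralogues of a pair differed in their response to GSKJ4 was tested on the within-library ratios, permuting treatment within each stage (8000 arrangements, smallest possible p 2.50e-04). Averaged over the 3 stages, the log2 ratio of *Isl1* over *Isl2* was 0.45 higher in treated libraries (exact permutation p 0.117, adjusted over 3 ratios 0.175), and that of *Lhx3* over *Lhx4* 0.59 lower (-0.59, exact permutation p 0.184, adjusted 0.184). *Isl1* over *Lhx3* was 0.53 higher (exact permutation p 0.0483, adjusted 0.145). None passed after adjustment, so a difference in sensitivity within a paralogue pair was not shown. With the replicate number as a block *Isl1* over *Lhx3* did pass (adjusted exact permutation p 0.0352). Whether same-numbered libraries paired at D4H8 and D5 was not clear, since replicate 2 correlated at only 0.0731 and 0.0384. The other replicates correlated at 0.44 and 0.255 at D4H8 and at 0.223 and 0.209 at D5. *Isl1* over *Lhx3* also passed without D4H8_GSKJ4 replicate 3 (0.72, adjusted exact permutation p 0.018), and without D4H8_GSKJ4 replicate 2 it was 0.29 (adjusted exact permutation p 0.334). The size of the shift varied by stage. At D5 *Isl1* exceeded *Isl2* between 8.30-fold and 16.0-fold in treated and between 3.55-fold and 5.90-fold in untreated libraries, a log2 difference of 1.22 (SE 0.358) with no overlap, at the smallest p that 3 against 3 allows (exact permutation p 0.10). At D4H8 the same ratio moved the other way, by -0.43 (SE 0.391, exact permutation p 0.20), and the libraries overlapped. *Lhx3* over *Lhx4* at D4H8 ranged from 0.240-fold to 2.25-fold in treated and from 2.12-fold to 2.67-fold in untreated libraries (-1.68, SE 0.938, exact permutation p 0.30).

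**Figure D4:**
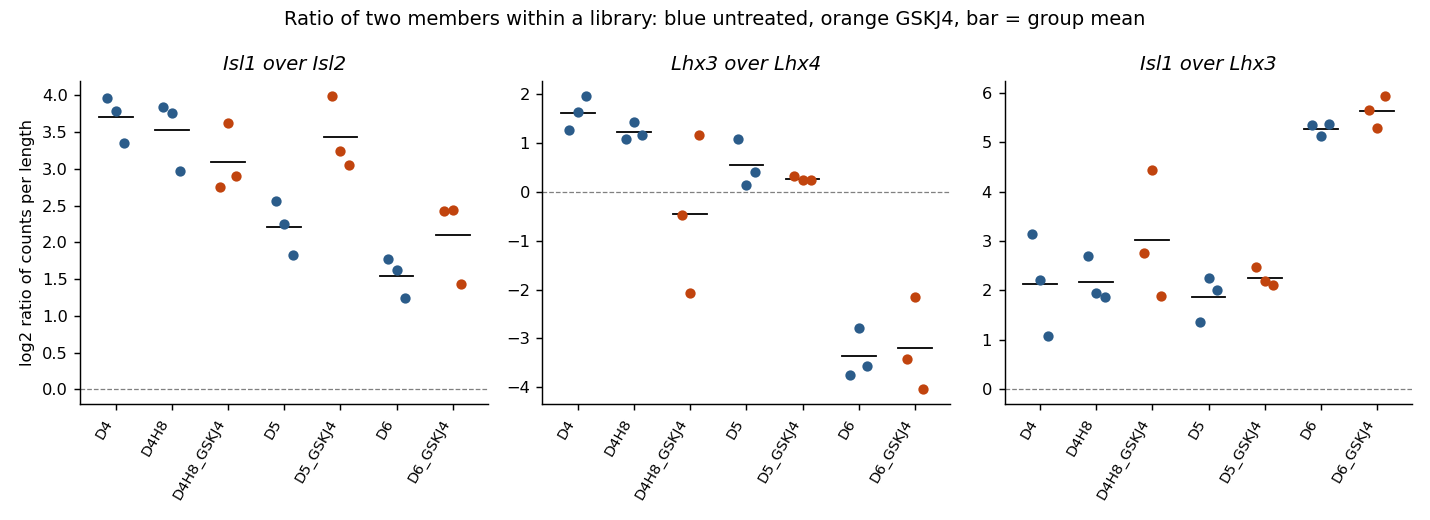
Log2 ratio of counts per exon length for *Isl1* over *Isl2*, *Lhx3* over *Lhx4* and *Isl1* over *Lhx3* in each of the 21 libraries, untreated in blue and GSKJ4 in orange, with a bar at each group mean and a dashed line at equal levels. *Lhx3* over *Lhx4* drops below the line at D6 in treated and untreated libraries alike, and *Isl1* over *Isl2* is higher in the 3 treated than in the 3 untreated libraries at D5.

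The libraries of D4H8_GSKJ4 met or overlapped those of D4 for all 5 members, with *Lhx3* at a mean of 0.767 FPKM against 1.02 FPKM, and that step was not tested. In the fit over all 21 libraries all 5 members were higher in D5_GSKJ4 than in D4, where 18% of 18349 genes were, with log2 fold changes of 4.91 for *Lhx4* (SE 0.437), 4.08 for *Isl2* (SE 0.396), 3.75 for *Isl1* (SE 0.313), 3.42 for *Lhx3* (SE 0.460) and 1.64 for *Mnx1* (SE 0.339), at edgeR adjusted p between 1.77e-08 and 8.23e-04. GSKJ4 had been present from D4 on in these treated cells. From D4H8_GSKJ4 to D5_GSKJ4, separate cultures treated over different days, all 5 rose as well, against 14.6% of genes. Without D5_GSKJ4 replicate 2 all 5 still passed in both steps, at edgeR adjusted p between 6e-08 and 0.00259. From D5_GSKJ4 to D6_GSKJ4 *Isl2* (2.68, SE 0.313), *Lhx4* (1.50, SE 0.351) and *Isl1* (1.36, SE 0.282) rose, as 13.0% of genes did, and *Lhx3* fell by 1.96 (SE 0.427, adjusted p 0.00228 in edgeR), as 12% of genes did. The log2 fold change of *Mnx1* was 0.67 (SE 0.328, adjusted p 0.139 in edgeR). Without D5_GSKJ4 replicate 2 these calls held, with log2 fold changes of 2.65 for *Isl2*, 1.44 for *Lhx4*, 1.25 for *Isl1* and -2.04 for *Lhx3*.

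Cells at D6_GSKJ4 had been untreated until D5, and against untreated D5 cells *Lhx3* fell by 3.08 (SE 0.441, adjusted p 6.76e-05 in edgeR), where 9.37% of genes fell. Without GSKJ4 *Lhx3* fell by 2.78 in the same fit. *Isl2* (0.71, SE 0.292, adjusted p 0.0945 in edgeR), *Lhx4* (0.67, SE 0.344, adjusted p 0.187 in edgeR), *Isl1* (0.65, SE 0.278, adjusted p 0.11 in edgeR) and *Mnx1* (0.06, SE 0.326, adjusted p 0.933 in edgeR) did not pass from D5 to D6_GSKJ4. In that fit the untreated step from D5 to D6 did not pass for *Isl1* either (0.64, adjusted p 0.108 in edgeR), nor for *Mnx1* (0.26, adjusted p 0.628 in edgeR), while *Isl2* (1.25, adjusted p 0.00424 in edgeR) and *Lhx4* (1.16, adjusted p 0.0195 in edgeR) passed. The same D5 libraries served both steps. *Isl2* passed without D4H8_GSKJ4 replicate 1 (0.73, adjusted p 0.0356 in edgeR), a library outside the contrast that enters through the shared estimate of spread.

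Ordered by mean FPKM, *Isl1* rose from D4 (3.79) through D4H8_GSKJ4 (5.42), D4H8 (28.5), D5_GSKJ4 (53.5), D5 (84.9) and D6 (125.1) to D6_GSKJ4 (127.3), and only the first pair and the last pair of that order overlapped. For *Isl2*, *Lhx4* and *Mnx1* the order was the same except that D6_GSKJ4 came before D6, and D5, D6_GSKJ4 and D6 overlapped with their neighbours, as D4 and D4H8_GSKJ4 did. *Lhx3* had its own order, from D4H8_GSKJ4 (0.767) and D4 (1.02), which overlapped, through D6_GSKJ4 (2.66) and D6 (3.24), which overlapped, to D4H8 (6.31), D5_GSKJ4 (11.1) and D5 (23.3). For *Mnx1* D4H8_GSKJ4 (9.42) overlapped with D4H8 (12.9) as well as with D4 (8.23).

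The genes whose log2 CPM over the 21 libraries was most like that of a member are given with Pearson's r as a description, since libraries of the same stage share their stage and the treated libraries share controls. Nearest to *Lhx4* was *Slc18a3*, the vesicular acetylcholine transporter (r = 0.99), followed by *Ina*, *Chrna4*, *Pcdhb2* and *Smpd3*. *Isl2* was nearest to *Fam174b*, *Tbc1d9*, *Dusp4*, *Lhx4* (r = 0.98) and *St6galnac5*, and its own paralogue *Isl1* came at r = 0.97. *Isl1* was nearest to *Lrp12* and *Elavl3*, a neuronal RNA-binding protein gene (both r = 0.98), and then *Pcdhb3*, *Tbc1d9* and *Onecut1*. *Lhx3* stood apart, with *Prmt8*, an arginine methyltransferase gene (r = 0.96), *Rhbdl3*, *Cabp7*, *Hoxaas2* and *Arl4d* nearest, and r of 0.61 with *Lhx4*, 0.67 with *Isl1* and 0.57 with *Isl2*. *Mnx1* was nearest to *Rps6kl1*, *Sez6l*, *Dusp26*, *Tk2* and *Shkbp1* (all r = 0.95). With Spearman's rho in place of Pearson's r, 3 of the 5 nearest genes of *Lhx3*, 2 of *Isl2* and 0 of *Isl1*, *Lhx4* and *Mnx1* were the same, so single names in these lists depend on the measure.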

How the data were processed

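RNA-seq was done on 21 libraries, 7 groups of 3 biological replicates, and p-values measure the spread between these cultures. The authors trimmed reads with Fastp, aligned them to mm10 with HISAT2, processed alignments with SAMtools and counted reads per gene with HTSeq; these counts were deposited for 55400 genes. The authors' deposited FPKM came from the counts and gene lengths, and recomputed FPKM differed by at most 0.005. The authors tested with DESeq2. Whether counting used strand was not given in the sources used here. Libraries held 14982115 to 34383842 counts. Columns of all 21 libraries were used.

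Counts were tested with edgeR 4.0.16 (quasi-likelihood, TMM scaling, filterByExpr with a minimum count of 10, Benjamini-Hochberg adjustment over all tested genes, threshold 0.05) in R 4.3.3 with limma 3.58.1. Each GSKJ4 contrast used its own 6 libraries, stages the 12 untreated ones, differences of the GSKJ4 effect 18, and courses under GSKJ4 all 21. Log2 CPM used a prior count of 2. Ratios of members within a library were tested with exact permutation tests, two-sided, adjusted over 3 ratios per family. Python 3.11.15, pandas 2.3.3, numpy 2.4.6, scipy 1.17.1 and matplotlib 3.10.9 were used. Alternatives were DESeq2 1.42.0, scaling by RLE or by the upper quartile, leaving out the filter or asking for 10 counts in each library, the replicate number as a block, a single fit of 21 libraries, a ratio pseudocount of 2 in place of 0.5, and each library left out in turn. The fits were tested on simulated data. Shares of genes called by DESeq2 are over all genes with any count, a larger set than the filtered genes of edgeR. The shares of the tools are therefore not directly comparable.

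Replicate numbers in the labels were checked as pairs through the correlation of same-numbered libraries' deviations from their group means. At D6 the treated and untreated libraries paired (0.663, 0.316 and 0.446), so values with the replicate block are given there.

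The members and lists were chosen with earlier results of these data known. Beside the members, the rule named up to 4 genes per list and comparison, those called with the largest change or else those with the highest mean count, and the 5 genes most like each member by Pearson's r among genes with a mean of at least 100 counts. *Foxp1*, *Phox2a*, *Lhx1* and *Ldb1* are also given where the rule does not name them, chosen after their values were seen. A few list genes are not reported here. Peak, protein and imaging data were not analysed here.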

Additional observations from a re-analysis of the deposited data

Results flagged for a closer look

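The GSKJ4 effect on *Isl1* and on *Lhx3* differed between D4H8 and D6 in a test of the difference itself. For *Isl1* the log2 fold change was -2.44 at D4H8 and 0.02 at D6, and the difference of 2.46 (SE 0.367) had an adjusted p of 0.00239 in edgeR over 18 libraries, which stayed between 2.29e-04 and 0.0145 with each library left out. For *Lhx3* it was -3.10 at D4H8 and -0.29 at D6, and the difference of 2.82 (SE 0.511) had an adjusted p of 0.0123 in edgeR, with values between 0.00207 and 0.0524 with a library left out. At D4H8 the highest treated library was lower than the lowest untreated one for both genes, and at D6 the groups overlapped. Summed progenitor and proneural factors were at 28.93 to 74.96 FPKM in treated and 285.09 to 440.48 FPKM in untreated libraries at D4H8. At D6 the sums were 140.78 to 259.30 FPKM in treated and 137.17 to 250.49 FPKM in untreated libraries. Most of the untreated D6 sum was *Nkx6-1* (190.41, 104.79 and 134.71 FPKM). *Olig2* was at 0.51, 1.66 and 1.54 FPKM there and *Neurog2* at 1.79, 2.17 and 1.78 FPKM. The part of these factors in the difference was not tested.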

How the results depend on the processing

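Of 1482 refits of the members' log2 fold changes under an alternative, 1414 kept direction and side of the threshold, 44 newly passed, 11 no longer passed and 13 changed sign. The number of members called at D4H8 with GSKJ4 was 2, but 3 with upper-quartile scaling or the stricter filter and 4 with no filter, with the replicate block, in DESeq2 and in one fit over 21 libraries. It was 0 at D5, but 4 with no filter and in DESeq2 and 1 in one fit over 21 libraries, and 0 at D6, but 2 with the block. For the GSKJ4 effect at D5 against D4H8 it was 0, but 1 with upper-quartile scaling, the stricter filter or the block and 2 with no filter or in DESeq2. At D6 against D4H8 it was 2, but 4 with no filter, and at D6 against D5 it was 0, but 1 with no filter. From D5 to D6_GSKJ4 it was 1, but 4 with no filter and 2 in DESeq2. With 1 library left out the counts ran from 1 to 4 (GSKJ4 at D4H8, 4 without D4H8_GSKJ4 replicate 1), from 0 to 2 (D5 against D4H8), from 1 to 3 (D6 against D4H8), from 1 to 2 (D5 to D6_GSKJ4), from 3 to 4 (D5 to D6) and from 4 to 5 (D4 to D4H8). Many of these counts stand without the share of all genes called under the same setting. They show how the members' calls moved and not how the members compared with other genes.

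With a library left out, values that did not pass changed sign: *Isl1* with GSKJ4 at D6 (from -0.0807 to 0.1637), *Mnx1* there (from -0.3985 to 0.0196), *Isl2* (from -0.3241 to 0.6565) and *Mnx1* (from -0.4309 to 0.2432) for D5 against D4H8, and *Mnx1* from D5 to D6_GSKJ4 (from -0.1073 to 0.2024). The GSKJ4 shift of *Isl1* over *Lhx3* was 0.5281, with an adjusted p of 0.0352 in the exact paired permutation with the replicate block, and 0.2929 to 0.7180 with a library left out. The causes of these changes were not tested.

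Same-numbered treated and untreated libraries correlated at 0.44, 0.0731 and 0.255 at D4H8 and at 0.223, 0.0384 and 0.209 at D5. Replicate 2 was near 0 at both stages, so pairing there was not clear. Where numbers paired (D4H8 to D5, D5 to D6, D5 to D6_GSKJ4 and GSKJ4 at D6), the block changed no member's call beyond *Isl2* and *Lhx4* at D6. With upper-quartile scaling the median log2 fold change over all genes from D4 to D6 was -0.19 in place of -0.04, and *Isl1* from D5 to D6 no longer passed (adjusted p 0.0571 in edgeR), nor did it in one fit over 21 libraries (0.108). With 3 libraries a group and *Isl2*, *Lhx3* and *Lhx4* near or under 1 FPKM at D4 and in D4H8_GSKJ4, small differences there were not detectable.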
